A study of Mus musculus with 12 samples.

Results

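The miR-181 family of microRNAs (miRNAs) was examined on arrays of mouse retina and sclera. Its members were chosen by name, as every miRNA on the array whose name starts with mmu-miR-181. There were 6 such names among the 696 mouse miRNA names on the array. They are miR-181a-5p, miR-181b-5p, miR-181c-5p and miR-181d-5p, and the opposite strands miR-181a-1-3p and miR-181a-2-3p.

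The arrays come from a study of form-deprivation myopia, in which a diffuser over an eye blurs the retinal image and the eye becomes nearsighted. C57BL/6J mice wore a diffuser over the right eye for 10 days, from postnatal day 24 to day 34, and the untreated left eye was the control. Whole retina and sclera, the outer wall of the eye, were taken at day 34, giving 4 groups of 3 arrays: control retina, myopic retina, control sclera and myopic sclera. Each array is described as holding RNA pooled from 3 eyes, whereas the sample labels speak of single mice. The control eyes belonged to mice that wore a diffuser on the other eye, so a response shared by both eyes would not show in these comparisons.

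A miRNA guides the silencing machinery to messenger RNAs, chiefly through its seed, the bases near its 5′ end that pair with the target. The miR-181 family is conserved among vertebrates and is best known for setting the sensitivity of developing T cells to antigen. In the retina it is found mainly in the inner layers, where miR-181a and miR-181b act in the growth of amacrine and ganglion cell processes and in the turnover of mitochondria.

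The mature sequences show which members can share targets and which can be told apart by a probe. They were taken from RefSeq (GRCm38.p6), where all 6 names were matched. They are written 5′ to 3′, and capitals mark the seed, bases 2 to 8. The first 4 share a seed.
mmu-miR-181a-5p: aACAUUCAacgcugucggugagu
mmu-miR-181b-5p: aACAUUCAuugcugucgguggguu
mmu-miR-181c-5p: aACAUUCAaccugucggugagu
mmu-miR-181d-5p: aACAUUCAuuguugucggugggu
The opposite strands have other seeds, which also differ from each other.
mmu-miR-181a-1-3p: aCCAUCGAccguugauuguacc
mmu-miR-181a-2-3p: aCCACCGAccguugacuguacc

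With positions counted from 1 at the 5′ end, miR-181a-5p differed from miR-181b-5p by A9U, C10U and A21G, and miR-181b-5p was 1 base longer (24 against 23). MiR-181b-5p differed from miR-181d-5p by C12U over their shared length. Removing base 11 of miR-181a-5p left 0 substitutions against miR-181c-5p, so these members differ by a single inserted base. The opposite strands differed by U5C, inside the seed, and by U16C.

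The members come from 3 places in the genome. Probe targets of miR-181a-5p and miR-181b-5p lie 168 bases apart on chromosome 1 (mm9, bases 139863054 to 139863067 and 139863236 to 139863249) and again 1090 bases apart on chromosome 2 (38708270 to 38708283 and 38709374 to 38709387). Both mature miRNAs are identical between the copies, so the arrays cannot assign their signal to a locus. MiR-181a-1-3p comes from the chromosome 1 copy only, and miR-181a-2-3p from the chromosome 2 copy only. The chromosome 2 hairpins lie within Nr6a1 and its antisense transcript Nr6a1os in RefSeq, whereas no gene of the RefSeq table contains the others. Targets of miR-181c-5p and miR-181d-5p lie 147 bases apart on chromosome 8 (86702791 to 86702809 and 86702627 to 86702643).

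On this type of array each miRNA is read by short DNA probes printed as repeated spots. The software adds up the probes of a miRNA into a total gene signal, a background-subtracted fluorescence intensity, and lists 0.1 where no probe exceeds 3 times its error. Each detected member had 2 probes of 10 spots each. The brighter probe of each 5p member is shown 5′ to 3′. Capitals mark the probe's longest run that can also pair with another member, through which the probe could read the wrong member.
miR-181a-5p probe: ACTCACCGACAGcg
miR-181c-5p probe: ACTCACCGACAGgttgaat
miR-181b-5p probe: ACCCACCGACAgca
miR-181d-5p probe: ACCCACCGACAacaatg
The run was 12 bases between miR-181a-5p and miR-181c-5p and 11 bases between miR-181b-5p and miR-181d-5p. How much of each signal came from the near relative was not tested, and signals of different members are not compared as amounts, because their probes differ in length.

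The arrays detected 353 to 372 miRNAs in retina of control eyes, 376 to 401 in retina of myopic eyes, 274 to 317 in sclera of control eyes and 290 to 317 in sclera of myopic eyes. No spot was saturated. MiR-181a-5p, miR-181b-5p, miR-181c-5p, miR-181d-5p and miR-181a-1-3p were detected on all 12 arrays and so did not depend on the filter for dim miRNAs. MiR-181a-2-3p was detected on 0 of 12 arrays and is listed at 0.1 throughout. None of its 4 probes exceeded 3 times its error on any array, and 3 bases of each lie beyond the end of the RefSeq mature sequence. It was therefore not tested, and no fold change is given for it.

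Of the 5p strands, mmu-miR-181a-5p, the member most studied in T cells and neurons, had signals of 6243, 5999.9 and 6022 on arrays 1, 2 and 3 of control retina, while myopic retina gave 6181, 7617 and 6107. Its sclera signals were 419, 443 and 172 on the control arrays and 292, 239 and 222 on the myopic arrays. Every retina array lay above every sclera array, and within each tissue the control and myopic ranges overlapped. Control sclera array 3 was the lowest of all. It was also the dimmest array as a whole, with a 75th percentile of 276 over the miRNAs detected everywhere, against 674 and 803 on control sclera arrays 1 and 2.

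The neighbour mmu-miR-181b-5p, transcribed next to miR-181a-5p at both loci, gave 3428, 3412 and 3476 in retina of control eyes, 3467, 4298 and 3279.8 in retina of myopic eyes, 259.9, 285 and 116 in sclera of control eyes and 193, 156 and 153 in sclera of myopic eyes. The strand mmu-miR-181a-1-3p, the opposite strand of the chromosome 1 hairpin, gave 279.7, 293 and 318, then 295, 375 and 292 in retina of myopic eyes, 30.8, 34.9 and 18.2 in sclera of control eyes and 21.0, 19.2 and 17.1 in sclera of myopic eyes. Both were highest on myopic retina array 2 and separated by tissue. The lowest array was control sclera array 3 for miR-181b-5p and myopic sclera array 3 for miR-181a-1-3p.

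From the chromosome 8 locus, mmu-miR-181c-5p had signals of 1226, 1251 and 1403 in retina of control eyes, 1299, 1639 and 1241 in retina of myopic eyes, 174, 213 and 64.4 in sclera of control eyes and 145.2, 121 and 114 in sclera of myopic eyes. The other chromosome 8 member, mmu-miR-181d-5p, gave 316, 326 and 334, then 326, 429 and 318 in retina of myopic eyes, 61.0, 71.3 and 32.0 in sclera of control eyes and 51.5, 43.8 and 41.8 in sclera of myopic eyes. Control sclera array 3, the dimmest array, was the lowest for both. Both members were separated by tissue on all arrays.

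**Figure D1:**
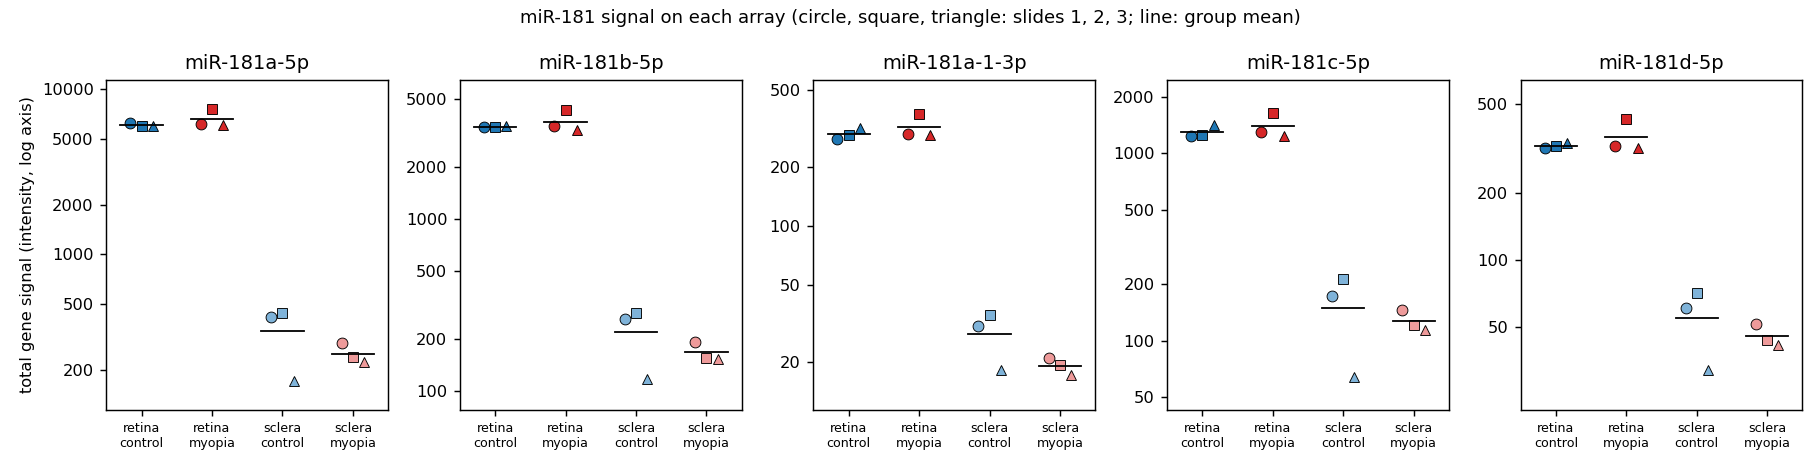
Total gene signal (intensity, log axis) of the 5 detected members on each of the 12 arrays, with the group mean as a line and the slide as the symbol. For miR-181a-5p the retina arrays run from 5999.9 to 7617 and the sclera arrays from 172 to 443, and the triangle of the control sclera is the dim array.

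The summed signal of the family was 1.88%, 1.79% and 1.61% of all miRNA signal in retina of control eyes and 1.69%, 1.72% and 1.90% in retina of myopic eyes. In the sclera it was 0.266%, 0.274% and 0.201% on the control arrays and 0.218%, 0.205% and 0.232% on the myopic arrays. The tissues did not overlap, and control and myopic shares overlapped within each tissue.

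For the tests the arrays were quantile normalized, which gives each the same distribution of values. On the resulting log2 scale miR-181a-5p stood at 12.27, 12.11 and 12.11 in retina of control eyes and at 9.06, 9.01 and 9.01 in sclera of control eyes. The repeated values arise because a miRNA with the same rank on several arrays receives the same value. MiR-181d-5p stood at 7.91, 8.00 and 7.83 in retina of control eyes and at 6.82, 6.78 and 7.01 in sclera of control eyes. Both members were separated by tissue, miR-181d-5p by the smaller distance. On this scale every retina array lay above every sclera array for 5 of the 5 detected members, which held for 30.2% of the 443 miRNAs tested.

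The comparison of control retina with control sclera asks how the family differs between the tissues in untreated eyes. All 5 tested members were higher in retina by the rule of a limma adjusted p under 0.05 and at least 2-fold, where 50.6% of the 443 miRNAs tested passed in either direction and 27.5% passed as higher in retina. MiR-181a-5p was higher by 3.13 log2 units (SE 0.10, adjusted p 2.07e-09), an 8.76-fold difference that ranked 82nd of 443. MiR-181b-5p followed with 2.79 (SE 0.11, adjusted p 1.28e-08; 6.90-fold). MiR-181c-5p differed by 1.95 (SE 0.11, adjusted p 2.53e-07) and miR-181a-1-3p by 1.64 (SE 0.15, adjusted p 7.42e-06). MiR-181d-5p had the smallest difference, 1.04 (SE 0.12, adjusted p 4.94e-05; 2.06-fold), just past the fold threshold. Without control retina array 2 or control sclera array 2 it was 0.99, below the threshold.

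The other 6 arrays, myopic retina and myopic sclera, belong to the same fit and share its error estimate with the comparison of control eyes. They also share mouse identifiers with the control arrays, so the comparisons are not independent. Between myopic retina and myopic sclera 4 of 5 members passed, where 58.9% of all tested miRNAs passed and 32.5% passed as higher in retina. The difference was 3.27 for miR-181a-5p (SE 0.10, adjusted p 1.57e-09), 3.06 for miR-181b-5p (SE 0.11, adjusted p 6.70e-09), 2.05 for miR-181c-5p (SE 0.11, adjusted p 1.62e-07) and 1.95 for miR-181a-1-3p (SE 0.15, adjusted p 1.72e-06). MiR-181d-5p differed by 0.88 (SE 0.12, adjusted p 0.00014), which is 1.85-fold and misses the fold threshold; divided by the 75th percentile of the miRNAs detected everywhere it was 1.77 and passed. Under normexp miR-181a-1-3p, at 0.53, did not pass, leaving 3 of 5 members and 70 of 443 miRNAs. In each slide, which held 1 array of every group, the members were higher in retina: the difference of miR-181a-5p in control eyes was 3.21, 3.09 and 3.09 on slides 1, 2 and 3, and that of miR-181d-5p was 1.09, 1.23 and 0.82. With the slide as a replicate block the same numbers of members passed, 5 and 4, where 224 and 262 of 443 miRNAs passed. A group always sat at its own position on the slide, so slide position and group cannot be told apart. In tissue RNA, fewer cells that contain a miRNA and less of it per cell cannot be told apart either.

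**Figure D2:**
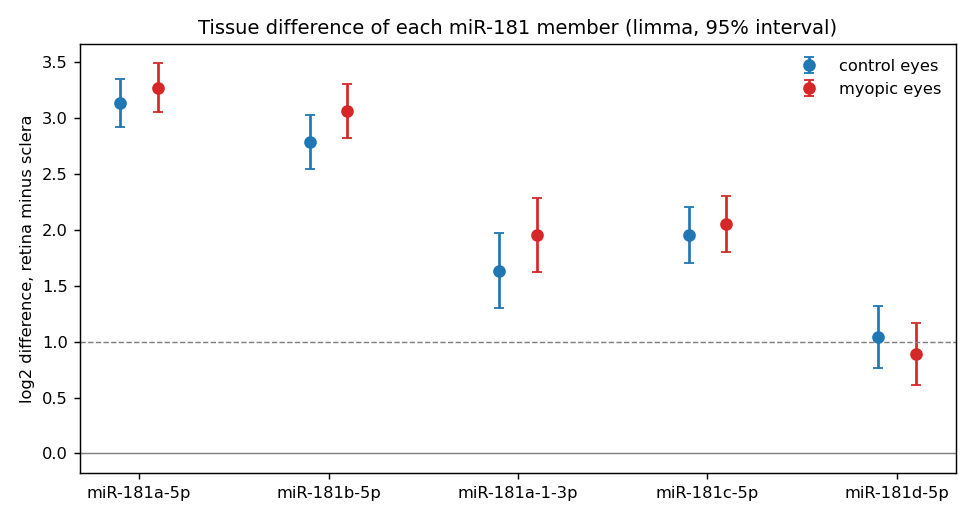
Difference between retina and sclera (log2, vertical axis) for each member in control and in myopic eyes, with 95% intervals from limma and a dashed line at 2-fold. The values fall from 3.13 and 3.27 for miR-181a-5p to 1.04 and 0.88 for miR-181d-5p.

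The size of the tissue difference depended on how the arrays were scaled, but each member was higher in retina under all 6 scalings compared. For miR-181a-5p in control eyes it was 3.13 after quantile normalization, 3.22 and 2.68 after division by the 75th percentile of the miRNAs detected everywhere or of all names, 4.26 with no normalization, 3.11 in the authors' log2 values and 2.47 after a background model with an offset of 50 (normexp). The median difference of all miRNAs tested moved as well, being 0.30, 0.79, 0.26, 1.58, 0.35 and 0.01 in that order. Relative to this median miR-181a-5p was higher by 2.83, 2.43, 2.43, 2.68, 2.76 and 2.46, and miR-181d-5p by 0.75, 0.82, 0.81, 1.06, 0.68 and 0.39. The order of miR-181a-5p, miR-181b-5p, then the remaining members, with miR-181d-5p last, was the same under the 6 scalings. The order of miR-181c-5p and miR-181a-1-3p was not: after quantile normalization they stood at 1.95 and 1.64, whereas division by the 75th percentile of the miRNAs detected everywhere gave 2.23 and 2.42, that of all names 1.69 and 1.88, and no normalization 3.27 and 3.46. Under normexp miR-181a-1-3p (0.55) and miR-181d-5p (0.41) were below 2-fold, so 3 of 5 members passed, where 62 of 443 miRNAs passed.

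**Figure D3:**
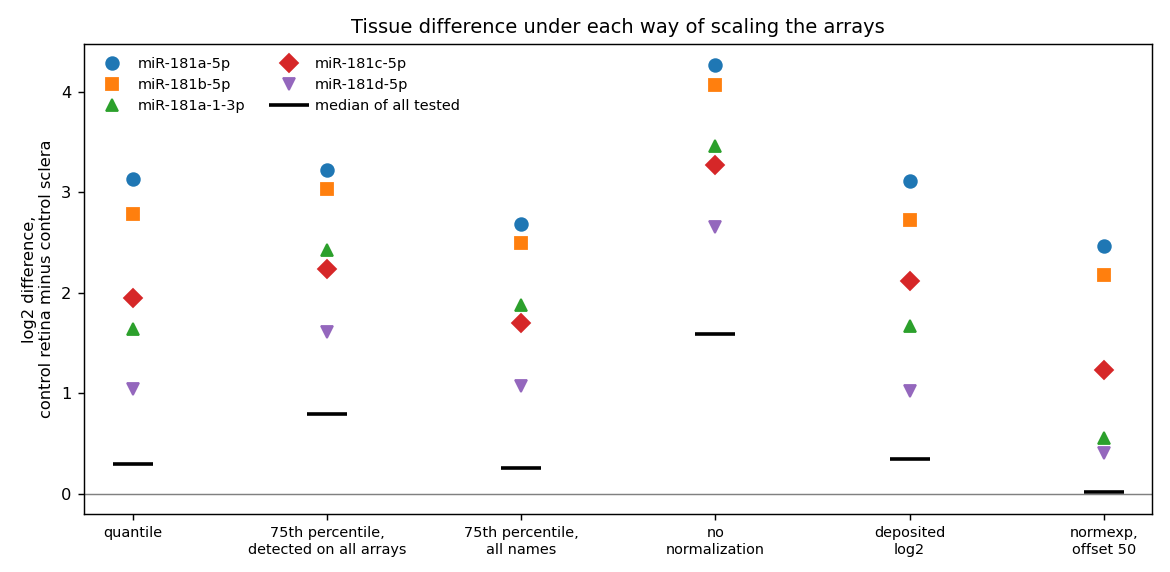
Difference between control retina and control sclera (log2, vertical axis) for each member under 6 ways of scaling the arrays, with the median of all tested miRNAs as a bar. MiR-181a-5p lies between 2.47 and 4.26 and above the other members throughout, while miR-181c-5p and miR-181a-1-3p change places.

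A ratio of the raw signals of 2 members on the same array asks whether members differ unequally between the tissues. A factor applied to a whole array leaves it as it is, but quantile normalization and normexp do not. The size of such a ratio reflects the probes, so only its change between arrays is read. The ratio of miR-181a-5p to miR-181c-5p, which share a seed and differ by an inserted base, was 5.09, 4.80 and 4.29 in retina of control eyes and 4.76, 4.65 and 4.92 in retina of myopic eyes. In the sclera it was 2.41, 2.08 and 2.67 on the control arrays and 2.01, 1.98 and 1.94 on the myopic arrays. The tissues did not overlap. MiR-181b-5p over miR-181d-5p behaved alike, with 10.8, 10.5 and 10.4 in retina of control eyes and 10.6, 10.0 and 10.3 in retina of myopic eyes, against 4.26, 3.99 and 3.63 in sclera of control eyes and 3.74, 3.55 and 3.65 in sclera of myopic eyes.

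For 9 of the 10 pairs of members the ratios in retina and sclera did not overlap, and among all 30135 pairs of miRNAs detected on every array the share was 69.8%. Unequal tissue differences of this kind were common among all miRNAs. The log2 ratio of miR-181a-5p to miR-181c-5p averaged 2.25 in retina (SD 0.08, n = 6) and 1.12 in sclera (SD 0.19, n = 6; exact permutation p 0.00216, adjusted over 10 pairs 0.00241). The pair of widest separation, miR-181a-5p over miR-181d-5p, averaged 4.22 and 2.53, with the same exact p, the smallest that 6 against 6 arrays allow. This permutation test counted all arrays as independent, although the arrays of a slide share a mouse identifier. Of the pairs encoded side by side, miR-181a-5p over miR-181b-5p averaged 0.84 (SD 0.04) and 0.61 (SD 0.05), a difference of 0.23, and miR-181c-5p over miR-181d-5p averaged 1.98 (SD 0.05) and 1.42 (SD 0.21), a difference of 0.56. The difference was 0.40 for miR-181a-1-3p over miR-181c-5p, which lie on different chromosomes, and the pairs were not tested against each other. In raw signal, in all 10 pairs, the two-sided exact test, adjusted over the pairs, gave a p of 0.0152 or less. The tissues did not overlap for 9 of 10 pairs after quantile normalization and in the authors' log2 values, where 67.9% and 67.6% of all pairs did not, and for 10 of 10 under normexp, where 74.9% did not. The same numbers of pairs had an adjusted exact p under 0.05.

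Strands of the same hairpin differed as well. MiR-181a-5p over miR-181a-1-3p had a ratio of 22.3, 20.5 and 18.9 in retina of control eyes and 20.95, 20.3 and 20.9 in retina of myopic eyes, against 13.6, 12.7 and 9.46 in sclera of control eyes and 13.9, 12.4 and 12.98 in sclera of myopic eyes. The tissues did not overlap, and control sclera array 3 was the lowest. The means on the log2 scale were 4.37 (SD 0.08, n = 6) and 3.63 (SD 0.20, n = 6; exact permutation p 0.00216, adjusted 0.00241). Since miR-181a-5p also comes from chromosome 2, the ratio is not that of a single hairpin.

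The pair miR-181a-1-3p over miR-181c-5p was the exception to the separation. Its log2 ratio averaged -2.12 in retina and -2.52 in sclera (exact permutation p 0.0152, adjusted 0.0152), and control sclera array 3, at -1.83, lay above every retina array. Paired within slides and treatment, 6 of 6 differences were positive for each of the other 9 pairs (exact sign-flip p 0.03125, the smallest possible, adjusted 0.0347). A positive sign depends on which member of a pair is named first. Tissues without overlap, found for 69.8% of all 30135 pairs of miRNAs, always give 6 differences of the same sign. For miR-181a-1-3p over miR-181c-5p 5 of 6 were positive (exact sign-flip p 0.0625), with 0.36, 0.51 and -0.32 in control eyes and 0.65, 0.52 and 0.65 in myopic eyes. Its direction depended on the scale: retina minus sclera was 0.40 in raw signal, but -0.21 after quantile normalization, -0.32 in the authors' log2 values and -0.68 under normexp. The other 9 pairs had the same sign on these scales. The sign-flip test counted the 6 differences as independent, although control and myopic arrays of a slide share a mouse identifier. It was not run with the 3 slides as units.

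**Figure D4:**
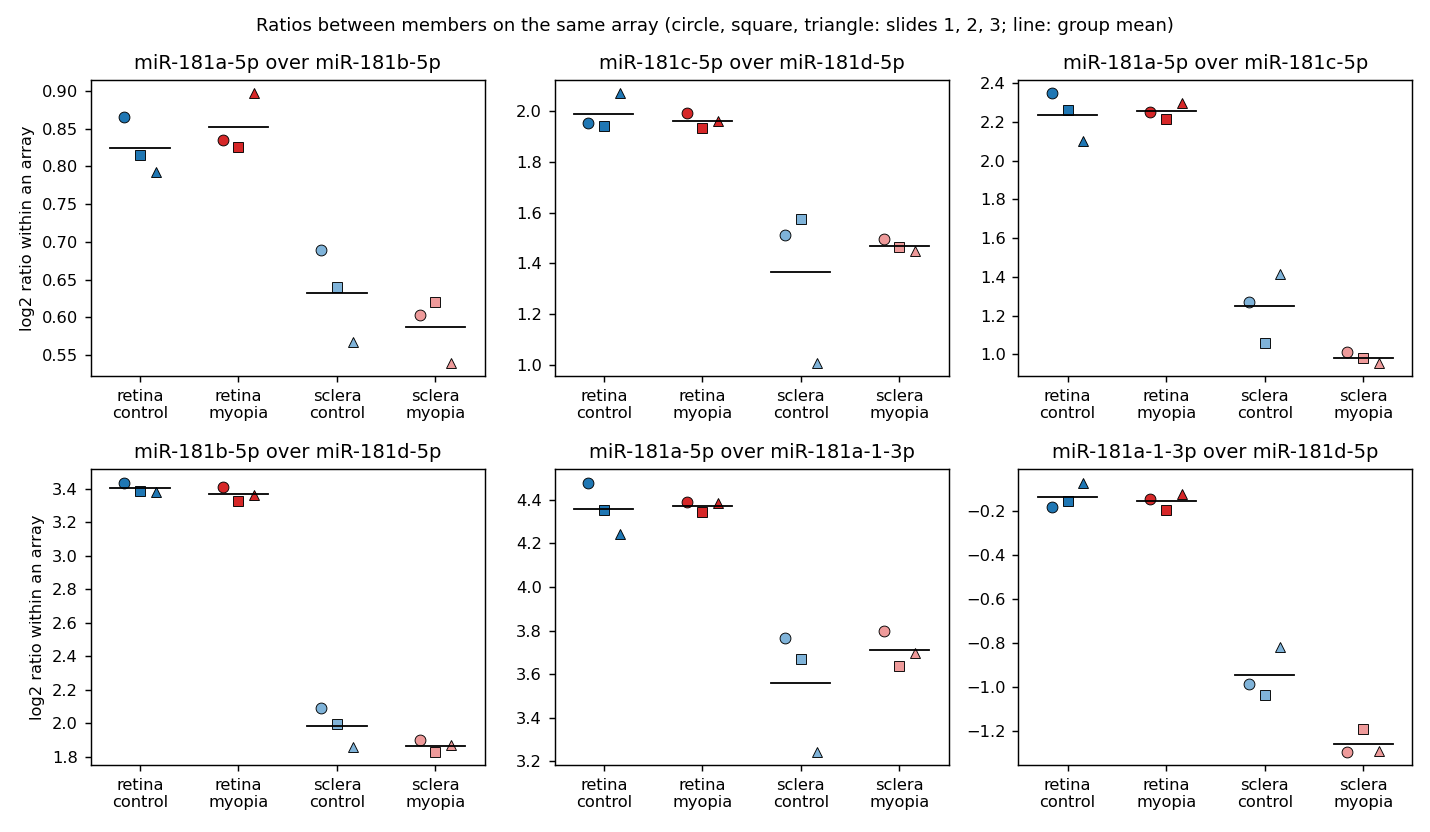
Log2 ratio of members on the same array (vertical axis) for 6 of the 10 pairs, by group, with the group mean as a line and the slide as the symbol. In each panel the retina arrays lie above the sclera arrays, as for miR-181a-5p over miR-181c-5p with 2.10 to 2.35 against 0.96 to 1.42.

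Myopic and control retina were compared to ask whether form deprivation changed the family in the tissue that senses the blur. On the normalized log2 scale miR-181b-5p stood at 11.41, 11.34 and 11.17 in retina of control eyes and at 11.41 on all myopic retina arrays. MiR-181d-5p stood at 7.91, 8.00 and 7.83 in retina of control eyes and at 7.70, 7.66 and 7.91 in retina of myopic eyes. The groups overlapped for all 5 members. By limma 0 of 5 members passed, where 0.226% of all tested miRNAs (1 of 443) passed. At an unadjusted p under 0.05 the count was 0 of 5 members and 130 of 443 miRNAs, and a linear model without moderation also passed 0 of 5. The largest fitted change was -0.18 for miR-181a-1-3p (95% interval -0.51 to 0.16, adjusted p 0.465), and that of miR-181a-5p was -0.01 (95% interval -0.22 to 0.21, adjusted p 1). Under normexp 2 of 5 members and 95 of 443 miRNAs had an unadjusted limma p under 0.05, and 0 of 5 members passed.

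The count for all miRNAs in this comparison rested on single arrays. Without control retina array 1 it was 122 of 442 (27.6%), and without myopic retina array 3 it was 13 of 443. With arrays weighted by their scatter, in a fit of the weights that stopped before it converged, it was 33.0% of all miRNAs. The number of miR-181 members passing was 0 of 5 in each case. With the weights, 2 of 5 members and 271 of 443 miRNAs had an adjusted p under 0.05 and the members missed the fold threshold: miR-181a-1-3p with -0.31 (limma adjusted p 0.00359) and miR-181d-5p with -0.29 (limma adjusted p 0.00316). The signs of the small member changes differed between scalings, and the median of all miRNAs was itself -0.12 after quantile normalization, -0.35 after division by the 75th percentile of all names and 0.10 with no normalization. Divided by the 75th percentile of the miRNAs detected everywhere, where that median was 0, the 5 changes lay between -0.02 (miR-181b-5p) and 0.02 (miR-181d-5p). The number of members with every myopic retina array below every control array was 0 of 5, against 9.26% of all miRNAs (9.38% in the authors' log2 values), and above it 0 of 5, against 5.19%. Without myopic retina array 3 it was 2 of 5 below, miR-181a-1-3p and miR-181d-5p, where 33.9% of all miRNAs were below. Without control retina array 1 it was 2 of 5 above, miR-181a-5p and miR-181b-5p, where 18.5% of all miRNAs were above and 44.7% below, and without myopic retina array 1 it was 1 of 5 above, miR-181c-5p (6.55%). In the authors' log2 values 1 of 5 was above, miR-181b-5p, against 5.49% of all miRNAs. Raw ratios between members overlapped for all 10 pairs, and 5.66% of all pairs of miRNAs did not. After quantile normalization, in the authors' log2 values and under normexp 3, 3 and 2 of 10 did not overlap, where 18.5%, 19.4% and 10.7% of all pairs did not. Without control retina array 1, control retina array 3 or myopic retina array 1, 1 of 10 did not overlap, where 37.7%, 12.1% and 10.3% of all pairs did not.

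In the sclera, the tissue whose remodelling lengthens the eye, the same comparison was made. MiR-181a-1-3p stood at 6.06, 5.92 and 6.36 on control sclera arrays 1, 2 and 3 and at 5.53, 5.61 and 5.72 on the myopic arrays. MiR-181a-5p stood at 9.06, 9.01 and 9.01 and at 8.87, 8.87 and 8.90, and miR-181b-5p at 8.51, 8.51 and 8.54 and at 8.34, 8.26 and 8.46. For these 3 members every myopic array lay below every control array, which held for 2.48% of the 443 miRNAs tested. MiR-181c-5p, at 8.04, 8.14 and 7.95 in sclera of control eyes and 8.08, 7.91 and 8.00 in sclera of myopic eyes, overlapped, and so did miR-181d-5p, at 6.82, 6.78 and 7.01 and at 6.86, 6.78 and 6.98. The 3 that separated on this scale come from the loci on chromosomes 1 and 2, and the other 2 from chromosome 8. Which members separated depended on the scale. With no normalization it was 0 of 5 (1.81% of all miRNAs), and as shares of the array's signal 1 of 5 (5.19%).

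The limma test passed 0 of 5 members in the sclera, where 0% of all tested miRNAs passed. Without control sclera array 2, control sclera array 3 or myopic sclera array 1, 1 miRNA passed, and 0 of 5 members. At an unadjusted p under 0.05 there were 1 of 5 members and 13 of 443 miRNAs, and the linear model without moderation had 3 of 5 members and 19 of 443 miRNAs at that level and passed 0. With the unconverged array weights there were 3 of 5 members and 66 of 443 miRNAs at that level, and 0 of 5 members passed, the lowest adjusted p being 0.0943 (miR-181a-1-3p, -0.37). Divided by the 75th percentile of the miRNAs detected everywhere there were 3 of 5 and 21 of 443, with no normalization 0 of 5 and 5 of 443, and under normexp 0 of 5 and 22 of 443. The fitted change was -0.49 for miR-181a-1-3p (95% interval -0.83 to -0.16, unadjusted limma p 0.00807, adjusted p 1), the 32nd lowest of 443. It was -0.15 for miR-181a-5p (95% interval -0.36 to 0.07; -0.30 when divided by that percentile) and -0.17 for miR-181b-5p (95% interval -0.41 to 0.07). MiR-181c-5p had -0.04 (95% interval -0.29 to 0.21) and miR-181d-5p 0.00 (95% interval -0.27 to 0.28). None of the 5 passed the correction, so no change with form deprivation is established for the sclera.

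Of the 443 miRNAs, 2.48% (11) had every myopic sclera array below every control array, against 3 of 5 members, and 2.93% had every one above (3.2% in the authors' log2 values), against 0 of 5. The pattern was noticed in these data and holds for members that share loci and similar probes, so they are not independent. Within slides 1, 2 and 3 the change was -0.53, -0.32 and -0.64 for miR-181a-1-3p, -0.19, -0.14 and -0.11 for miR-181a-5p and -0.17, -0.25 and -0.08 for miR-181b-5p. The count was 3 of 5 after division by the 75th percentile of the miRNAs detected everywhere, after quantile normalization within the sclera and in the authors' log2 values (2.52% of all miRNAs). After division by the 75th percentile of the miRNAs detected everywhere 4.51% of all miRNAs were below. It was 2 of 5 after division by the 75th percentile of all names (2.03% of all miRNAs) and 0 of 5 with no normalization (1.81%). As shares of the array's signal it was 1 of 5, miR-181a-1-3p (5.19%), and under normexp 3 of 5 (5.64%). Without any 1 of the 6 sclera arrays it was 3, where 2.71% to 8.58% of all miRNAs were below. Under 5 of the 6 scalings miR-181a-1-3p had the lowest change, from -0.53 to -0.37, and under normexp it had -0.07 while miR-181a-5p had -0.13. In raw signal both probes of all 5 members were lower on average in myopic sclera: -0.53 and -0.43 for miR-181a-1-3p, -0.35 and -0.34 for miR-181a-5p, -0.31 and -0.29 for miR-181b-5p, -0.20 and -0.15 for miR-181d-5p and -0.10 and -0.05 for miR-181c-5p.

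**Figure D5:**
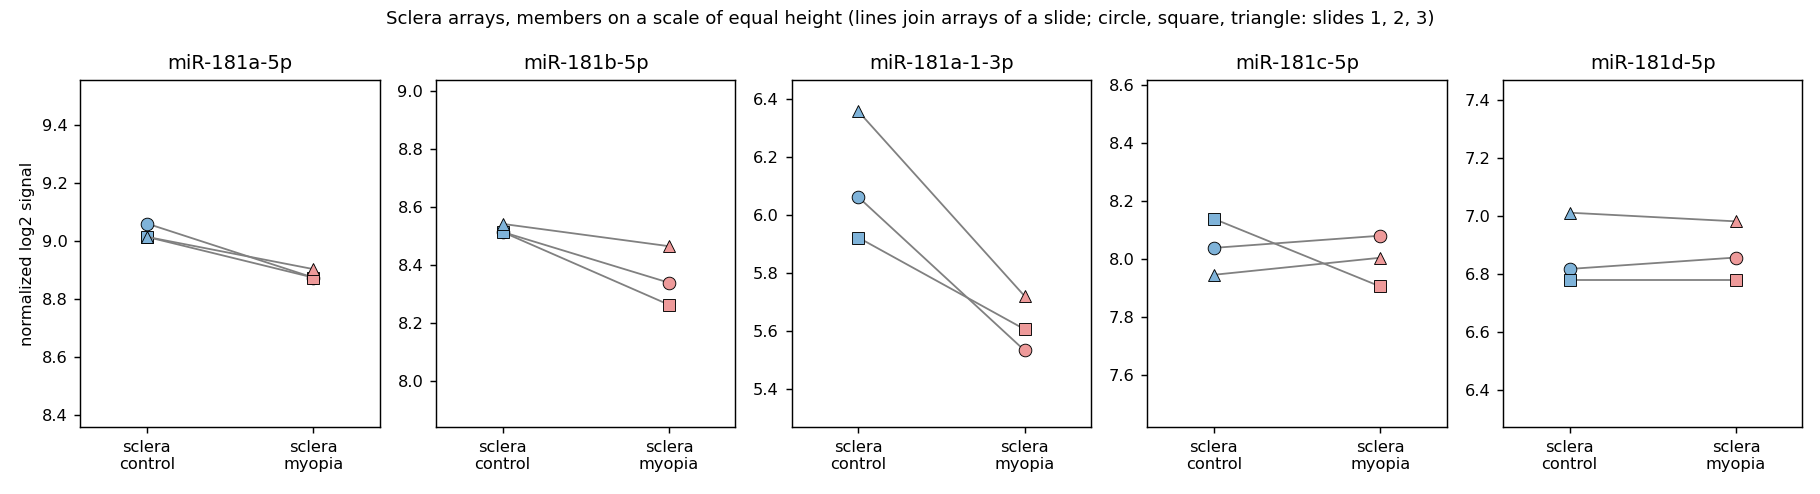
Normalized log2 signal (vertical axes of equal height) of each member on the control and myopic sclera arrays, with lines joining arrays of the same slide. MiR-181a-5p, miR-181b-5p and miR-181a-1-3p are lower on every myopic array after quantile normalization, as are 2.48% of the 443 miRNAs tested. The count is 0 of 5 members with no normalization (1.81% of all miRNAs) and 1 of 5 as shares of the array's signal (5.19%). MiR-181c-5p and miR-181d-5p overlap.

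Ratios within an array separated part of the sclera pairs, and which part depended on the scale. For 4 of 10 pairs the raw ratios of control and myopic sclera did not overlap, where 11.3% of all pairs of miRNAs did not. The log2 ratio of miR-181a-1-3p to miR-181d-5p was -0.99, -1.03 and -0.82 in sclera of control eyes and -1.29, -1.19 and -1.29 in sclera of myopic eyes. That of miR-181a-5p to miR-181c-5p was 1.27, 1.06 and 1.42 and then 1.01, 0.98 and 0.96. In raw signal both ratios were lower on the myopic array of every slide, whereas after quantile normalization miR-181a-5p over miR-181c-5p overlapped, at 1.02, 0.88 and 1.07 and then 0.79, 0.97 and 0.90. The mean differences were -0.31 and -0.26, and the other separated pairs, miR-181b-5p and miR-181a-1-3p over miR-181c-5p, had -0.22 and -0.42. Each had an exact permutation p of 0.1, the smallest that 3 against 3 arrays can give, and an adjusted p of 0.5 over 20 tests. These ratios cannot pass the threshold in this design. After quantile normalization, in the authors' log2 values and under normexp, 5 of 10 pairs did not overlap (9.72%, 9.31% and 12.6% of all pairs), but not the same ones: of the 4 pairs in raw signal, miR-181a-1-3p over miR-181d-5p alone was apart on each of these scales. Without control sclera array 3, 8 of 10 pairs did not overlap, and the share of all pairs of miRNAs was then 37.2%.

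The change in the retina minus the change in the sclera was tested directly and passed for 0 of 5 members, where 0.226% of all miRNAs passed. At an unadjusted limma p under 0.05 there were 0 of 5 members and 36 of 443 miRNAs, and the linear model without moderation had 2 of 5 members and 34 of 443 miRNAs at that level and passed 0 members. The difference was 0.32 for miR-181a-1-3p (95% interval -0.15 to 0.79, adjusted p 0.42) and 0.27 for miR-181b-5p (95% interval -0.07 to 0.62, adjusted p 0.38). Division by the 75th percentile of the miRNAs detected everywhere gave 1 of 5 members and 22 of 443 miRNAs at an unadjusted limma p under 0.05. With no filter for dim miRNAs these counts were 2 of 5 and 42 of 696, and 0 of 5 members passed in either case. Without control retina array 1, 112 of 442 miRNAs passed (25.3%), and without myopic retina array 3, 9 of 443 passed, in both cases with 0 of 5 members. With the unconverged array weights 35.2% of all miRNAs passed and 0 of 5 members. An adjusted p under 0.05 without regard to fold was then found for 258 of 443 miRNAs and 3 of 5 members, miR-181a-5p (0.20), miR-181b-5p (0.25) and miR-181d-5p (-0.34). No member passed under the weighted or the unweighted fit. The comparisons of treatment and of tissue share arrays.

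The tissue labels were checked against miRNAs known from neurons and photoreceptors, pigment epithelium, mesenchyme, muscle, white and red blood cells. Of 17 names of the neuronal list 15 were detected somewhere and 14 were higher in retina in both tissue comparisons, where 27.5% and 32.5% of all miRNAs were, with a median of 4.23 and 4.16 beside 0.30 and 0.36 for all miRNAs. Of 15 mesenchymal names 8 were detected and 7 were lower in retina in both comparisons, where 23% of all miRNAs were lower in control eyes and 26.4% in myopic eyes. The mesenchymal list held 5.35%, 6.23% and 3.91% of the signal on control sclera arrays and 6.11%, 5.91% and 6.09% on myopic sclera arrays, and 0.0301% to 0.0757% in retina, with miR-199a-3p of highest signal. Both lists lay on the side of the labelled tissue.

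The sclera arrays also carried neuronal miRNAs, which bears on how the miR-181 signal there is read. The neuronal list held 3.24%, 3.66% and 0.448% of the signal on control sclera arrays 1, 2 and 3 and 2.35%, 1.29% and 2.70% on the myopic ones, against 35.9% to 39.9% in retina. Its member of highest array signal, miR-124-3p, had 4285, 5088 and 263 in sclera of control eyes and 2966, 1298 and 2263 in sclera of myopic eyes, whereas miR-137-3p, miR-138-5p and miR-138-1-3p were undetected on all sclera arrays. On control sclera array 3, where the neuronal share was the lowest, normalized miR-181b-5p (8.54), miR-181a-1-3p (6.36) and miR-181d-5p (7.01) were the highest of the control sclera arrays and miR-181c-5p (7.95) was the lowest. MiR-181a-5p, at 9.01, equalled control sclera array 2 and was below the 9.06 of control sclera array 1. As a share of the array's signal, the scale of the neuronal values, the family was lowest there, with 0.266%, 0.274% and 0.201% on control sclera arrays 1, 2 and 3. On that scale miR-181a-5p (0.118%, 0.116% and 0.0858%), miR-181b-5p (0.0731%, 0.0744% and 0.0579%), miR-181c-5p (0.0489%, 0.0556% and 0.0321%) and miR-181d-5p (0.0172%, 0.0186% and 0.0160%) were also lowest on array 3, and miR-181a-1-3p (0.00866%, 0.00911% and 0.00907%) was not. So the order of these arrays depended on the scale. The part of neuronal RNA in the miR-181 values was not tested. The neuronal shares of control and myopic sclera overlapped.

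The pigment epithelium list, miR-204-5p and miR-211-5p, held 1.61%, 1.87% and 1.90% of the signal on control sclera arrays and 1.16%, 1.11% and 1.64% on myopic sclera arrays, against 2.67% to 3.34% in retina. The fitted changes of its members in the sclera were -0.64 (miR-204-5p) and -0.60 (miR-211-5p), both at an adjusted p of 1, with the sign of miR-181a-1-3p. The part of pigment epithelium in the lower miR-181a-1-3p of the myopic sclera was not tested. The muscle list (5 of 5 lower in retina in both comparisons, beside 23% and 26.4% of all miRNAs; highest signal miR-133b-3p) held 0.809%, 1.27% and 0.660% in sclera of control eyes and 1.42%, 1.16% and 0.738% in sclera of myopic eyes. The leukocyte list, 6 of 7 names detected and led by miR-223-3p, held 0.182%, 0.218% and 0.157% and then 0.179%, 0.185% and 0.188%. The red cell list of 2 names, led by miR-451, held 0.208%, 0.216% and 0.143% and then 0.246%, 0.259% and 0.221%. Every myopic sclera array was above every control array, which held for 0.451% of the 443 miRNAs taken singly as shares. It overlapped in retina, and every other list and family overlapped between control and myopic eyes in both tissues. The red cell difference was not tested. The part of muscle, leukocytes and red cells in the miR-181 values was not tested either.

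For each member the 3 miRNAs outside the family with the most similar pattern over the 12 arrays were found among 241 detected everywhere. The arrays form a retina and a sclera cluster, so these correlations mostly reflect the tissue difference, and 22 to 34 of the 241 had an r above 0.95. MiR-181a-5p was most like miR-210-3p (r 0.999), miR-30b-5p (0.998) and miR-132-3p (0.995). MiR-181b-5p was most like miR-30b-5p (0.999), miR-210-3p (0.998) and miR-9-3p (0.994), and miR-181c-5p like miR-128-3p (0.998), miR-30b-5p (0.997) and miR-210-3p (0.997). MiR-181d-5p was most like miR-410-3p (0.981), miR-331-3p (0.980) and miR-130b-3p (0.980). The miRNAs most like miR-181a-1-3p were miR-30c-5p (0.988), miR-211-5p (0.986) and miR-361-5p (0.984). Over the 6 sclera arrays alone miR-181a-1-3p had an r of 0.94 with miR-30c-5p, 0.96 with miR-211-5p and 0.75 with miR-361-5p, and over the 6 retina arrays 0.68, 0.78 and 0.23. For the other members and the first miRNA named for each, the r over the sclera arrays was 0.40 (miR-181a-5p), 0.64 (miR-181b-5p), 0.76 (miR-181c-5p) and 0.02 (miR-181d-5p), and over the retina arrays 0.68, 0.91, 0.58 and 0.89. MiR-210-3p had 0.34 with miR-181b-5p and 0.22 with miR-181c-5p over the sclera arrays.

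Among themselves, the members were unequally correlated within the sclera. Over the 6 sclera arrays the normalized values of miR-181a-5p had an r of 0.85 with miR-181b-5p and 0.85 with miR-181a-1-3p, of 0.28 with miR-181c-5p and of 0.00 with miR-181d-5p. MiR-181c-5p and miR-181d-5p, encoded side by side, had -0.33. In the retina miR-181a-5p had 0.56 with miR-181b-5p and -0.24 with miR-181a-1-3p. There miR-181a-1-3p had 0.91 with miR-181d-5p of another chromosome, the highest r of any pair within a tissue, and -0.48 with miR-181b-5p of its own locus. These rest on 6 arrays each, with the treatment groups mixed.

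Probes of the same member gave like tissue differences in raw log2 signal: 4.46 and 4.60 for miR-181a-5p, 4.24 and 4.31 for miR-181b-5p, 3.37 and 3.35 for miR-181c-5p and 2.77 and 2.89 for miR-181d-5p. The brighter over the dimmer probe of miR-181a-5p had a log2 ratio of 1.77 in retina (SD 0.03, n = 6) and 1.91 in sclera (SD 0.03, n = 6), without overlap, while the other members' probe ratios overlapped between tissues. Repeated spots of a probe had a median coefficient of variation of 3.24% to 9.08%, the highest for a probe of miR-181a-1-3p. In the sclera the signal of 30.8 of that member had an error of 3.76, and the signal of 17.1 an error of 2.50.

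Other families with several near-identical members were counted the same way, with no test of a difference between families. Of the let-7 family's 9 members 1 was higher and 2 were lower in control retina than in control sclera, with a median of 0.03, where 27.5% of all miRNAs were higher and 23% lower. Of the miR-30 family's 5 members 3 were higher and 0 lower, with a median of 1.08, and of 3 miR-29 members 2 were higher, with a median of 1.78. In the miR-181 family the median of the 5 tested members was 1.95, and 5 were higher, beside 0.30 and 27.5% for all 443 miRNAs. In myopic eyes the numbers higher and lower were 1 and 3 for let-7, 4 and 0 for miR-30, 2 and 0 for miR-29 and 4 and 0 for miR-181, beside 32.5% higher and 26.4% lower for all, so miR-30 and miR-181 had the same counts among 5 members each. The medians there were -0.18, 1.23, 1.48 and 2.05, beside 0.36 for all.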

How the data were processed

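The authors deposited, for each of the 12 arrays, scanner output in which per the file headers every signal is a fluorescence intensity from Agilent Feature Extraction (11.0.1.1), without normalization between arrays. The deposited table holds log2 values of 437 mouse miRNAs and 11 control features, made by the authors with Partek 6.6 by quantile normalization; absent features and outliers were taken out by a criterion that is not given, and the median over its miRNAs was 5.63 on each array, beside 5.78 over the 443 tested here. No sample was left unmapped. Total gene signals under 0.5 were set to 0.5, quantile normalized over 696 names and 12 arrays and taken to log2. The 253 names detected on no array were left out, 443 were tested, and 246 were detected on all 12 arrays. The 4 groups were fitted together with limma 3.58.1 (R 4.3.3), two-sided, with Benjamini-Hochberg adjustment over all 443; a call has an adjusted p under 0.05 and at least 2-fold. Ratios were tested by two-sided exact permutation (Python 3.11.15), adjusted over the pairs. The number of arrays limits the precision. Alternatives covered scaling, minimal signal, signal source, background, filter, block, weights, moderation and leaving out each array. Named besides the members are, for each, the 3 miRNAs of highest correlation, and the 2 of highest signal of each list; others were named after their values were seen. Members and lists were chosen with earlier results of these data known. Control and myopic eyes with the same mouse identifier were on the same slide; checked by the correlation of deviations from group means over the 246 miRNAs, pairs had 0.38, -0.46 and 0.59 in retina and -0.14, -0.16 and -0.00 in sclera.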

Additional observations from a re-analysis of the deposited data

How the results depend on the processing

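Alternatives were tallied for the counts of members and of ratios that passed or did not overlap. Of these, 98 gave a count within 1.5 times the one reported, so that 4 in place of 5 is included, and 6 did not. Of those leaving out an array 94 did and 2 did not. Members above in myopic retina, 0 of 5 as reported, are not in these tallies. They were 1 of 5 in the authors' log2 values (5.49% of all miRNAs), 2 without control retina array 1 (18.5%) and 1 without myopic retina array 1 (6.55%). Under normexp, whose offset of 50 compresses dim signals by construction, 3 of 5 members passed in control retina against control sclera. There 62 of 443 miRNAs passed. Without normalization 0 of 5 members had every myopic sclera array below every control array (1.81% of all miRNAs). As shares of the array's signal it was 1 of 5 (5.19%). Leaving out arrays in turn gave 4 to 8 ratio comparisons without overlap between myopic and control samples, of 20 (10 pairs in each tissue). The 8 came without control sclera array 3 and were in sclera, where 37.2% of all pairs of miRNAs did not overlap. Members below in myopic retina were 0 to 2 of 5, with 2 without myopic retina array 3, where 33.9% of all miRNAs were below. On the scales of quantile normalization, of the authors' log2 values and of normexp 8, 8 and 7 of the 20 did not overlap. In raw signal 4 did not, all in sclera. By tissue these were 3, 3 and 2 of 10 in retina, where 18.5%, 19.4% and 10.7% of all pairs of miRNAs did not overlap. In sclera they were 5, 5 and 5 of 10, where 9.72%, 9.31% and 12.6% of all pairs did not. The non-overlap alternatives, these scales, and leaving out arrays for the ratios of myopic and control samples were chosen after seeing the data. With the replicate block, paired within slides, 9 of 10 ratios passed between tissues, with control and myopic arrays of a slide counted as independent. The share of all pairs of miRNAs that would pass this paired test was not computed. The 0.40 for miR-181a-1-3p over miR-181c-5p was not past the threshold, and no member count changed.

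Of the values of single members and ratios, 391 kept their sign and their side of the threshold, 32 took the other sign, 4 fell short of the threshold and 3 newly passed it; with an array left out these were 410, 8 and 2, with 0.99 for miR-181d-5p between control tissues. The retina minus sclera ratio of miR-181a-1-3p to miR-181c-5p was -0.21 after quantile normalization, -0.32 in the authors' log2 values and -0.68 under normexp. The rest of those of the other sign belong to comparisons in which no member passed. The cause was not tested.

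For myopic against control retina, the 75th percentile of miRNAs detected everywhere gave 0.010 for miR-181a-5p, -0.018 for miR-181b-5p, -0.0082 for miR-181c-5p and 0.017 for miR-181d-5p. The 75th percentile of all names gave -0.37 for miR-181b-5p and -0.36 for miR-181c-5p. No normalization gave 0.12 for miR-181a-5p, 0.10 for miR-181a-1-3p and 0.12 for miR-181d-5p, normexp gave 0.043 for miR-181a-5p, and array weights gave 0.047 for miR-181a-5p and -0.014 for miR-181c-5p. Leaving out arrays gave -0.030 to 0.045 for miR-181a-5p and -0.0071 to 0.11 for miR-181c-5p.

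For myopic against control sclera, miR-181c-5p had 0.044 with the 75th percentile of all names, 0.061 with the brightest probe, 0.017 with normexp and -0.090 to 0.0085 with an array left out. MiR-181d-5p had -0.14 and -0.061 with the 75th percentile of miRNAs detected everywhere and of all names, -0.19 with no normalization, -0.024 with the mean processed signal of the spots, -0.079 with the brightest probe, -0.020 with normexp and -0.052 to 0.074 with an array left out.

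For the change in retina minus that in sclera, the 75th percentile of all names gave -0.12 for miR-181a-5p, -0.20 for miR-181b-5p and -0.41 for miR-181c-5p. Normexp gave -0.022 for miR-181a-1-3p and -0.0012 for miR-181c-5p, the brightest probe -0.022 for miR-181c-5p, the 75th percentile of miRNAs detected everywhere 0.16 for miR-181d-5p and no normalization 0.31. This comparison has no value with quantile normalization within each tissue or with the 6 arrays of a tissue alone.

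Signal over background limits miR-181a-1-3p in the sclera and leaves miR-181a-2-3p without a value. Exact tests of 3 against 3 arrays cannot pass the threshold.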
